A study of Mus musculus with 2 samples.

Results

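Fatty acid and triglyceride synthesis genes were chosen as 44 named mouse genes of the route from citrate and acetate to stored triglyceride, and all 44 were found on the array through the RefSeq transcript that a probe carries, among 20884 named genes. They were read from 2 single-colour Agilent arrays, 1 per cell population and with no replicate. The first array held differentiated small proliferative adipocytes (SPAD), obtained from collagenase-digested epididymal fat of male C57/BL mice as cells that floated in a brief slow spin and sedimented in a faster one. The second held differentiated stromal vascular cells (SVCD), grown from the lower phase of the slow spin of the same kind of fat, a fraction that holds many cell types. Both were cultured in DMEM to 90% confluency, kept for 3 days in insulin, dexamethasone and IBMX, a mixture that induces adipocyte differentiation, and kept for 2 more days in DMEM. The number of animals and of cultures behind each RNA is not in the labels.

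Fat cells make fatty acids from cytosolic acetyl-CoA, which comes from citrate exported by mitochondria or from acetate, and which is carboxylated to malonyl-CoA and condensed to palmitate with NADPH as reductant. Palmitate is elongated and desaturated, activated to acyl-CoA and joined stepwise to glycerol 3-phosphate, through lysophosphatidate, phosphatidate and diacylglycerol, to give triglyceride. In adipocytes the transcription factors SREBP-1c and ChREBP drive many genes of this route, and their products increase during differentiation.

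Of the 44 genes, 37 gave signals well above background in both cultures, 2 only in SPAD (Thrsp and Pck1), 2 only in SVCD (Fads2 and Gpam) and 3 in neither (Acss3, Pnpla3 and Mogat1). A difference is the log2 processed intensity on the SPAD array minus that on the SVCD array, each array first set to its own 75th percentile (an intensity of 622 for SPAD and 678 for SVCD). The ± beside it is the spot error of the difference and covers spot error only. It combines, for both arrays, the SD between repeat spots of repeatedly printed probes of like signal. Each SD is divided by the square root of the number of spots averaged. With 1 array per group no difference has a replicate check, none was tested, and differences between cultures, extractions and labelling reactions are not covered. In RNA of a whole culture, fewer cells of a type and less RNA per cell cannot be told apart.

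Synthesis genes differed in both directions between the cultures, with more of them higher in SPAD after percentile scaling. After the spike-in scaling described further on more of them were lower, though a smaller share than of all genes. An excess of 2-fold or more in SPAD was seen in 12 of the 37 genes (32.4%), against 14.4% of all 14074 genes detected in both cultures. Another 4 (10.8%) were at least 2-fold lower, a share near the 13.3% of all genes, and 21 lay within 2-fold. The median difference was 0.29, against 0.07 over all genes, and the quartiles were -0.13 and 1.20 against -0.48 and 0.60. The largest excess in SPAD was in Lpin3 (14.2-fold), Acss2 (12.9-fold) and Dgat2 (7.90-fold), and the largest deficit in Mogat2 (24.6-fold lower). Lpin3 ranked 100, Acss2 111 and Dgat2 236 from the highest of the 14074 genes, and Mogat2 ranked 53 from the lowest. In 26 of the 37 genes the difference was more than 3 times its spot error.

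**Figure D1:**
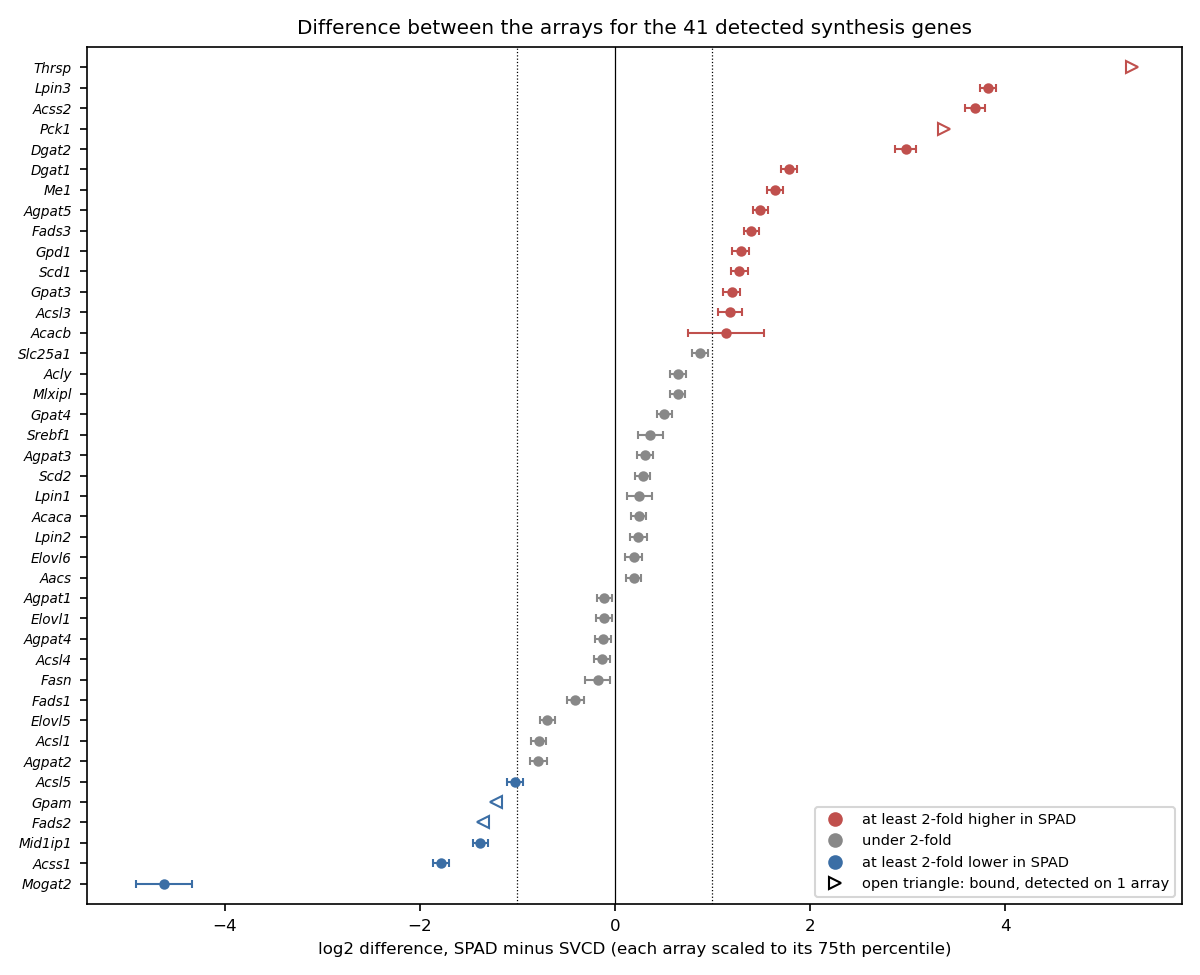
The horizontal axis gives the log2 difference, SPAD minus SVCD, for the 41 synthesis genes detected on at least 1 array, sorted by size. Bars are the spot error of the difference, dotted lines mark 2-fold, and open triangles are bounds for genes detected on 1 array. Thrsp, Lpin3, Acss2, Pck1 and Dgat2 lie apart on the SPAD side and Mogat2 on the SVCD side, while 21 genes lie between the dotted lines.

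The direction of the small differences depends on how the arrays are set against each other. On the spike-in control RNAs the SPAD array was brighter, by a median log2 difference of 0.71 over 8 control probes (range 0.66 to 1.78), and scaling to them shifts every difference by -0.83. On that scale 3 of the 37 genes (Lpin3, Acss2 and Dgat2) were at least 2-fold higher in SPAD, against 5.22% of all genes. Then 9 of the 37 were at least 2-fold lower, a smaller share than the 37.9% of all genes. They were Mid1ip1, Acss1, Acsl5 and Mogat2, also lower with percentile scaling, and Fasn, Elovl5, Fads1, Acsl1 and Agpat2, which were not past 2-fold there. Higher genes made up 75% of the genes past 2-fold with percentile scaling and 25% with spike-in scaling, and over all genes these shares were 52% and 12.1%. The median was -0.55 for the synthesis genes and -0.76 for all genes, and the gap between them is by construction as with percentile scaling. All values that follow use percentile scaling, and a positive difference smaller than that shift has the opposite sign on the spike-in scale. With a background correction that adds the same offset to every signal and so draws in differences of dim ones most (normexp), 10 genes were higher, against 9.78% of all genes, and 3 lower, against 9.46%. Counted from 3-fold, 5 were higher (6.91% of all genes) and 2 lower (7.03%).

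Markers of several cell types differed between the cultures alongside the synthesis genes. The white adipocyte markers Adipoq, Plin1, Cidec, Cfd, Fabp4, Pparg, Slc2a4 and Retn were each at least 2-fold higher in SPAD, Lpl was lower (-2.77 ± 0.08) and Lep was above background in neither culture. Their median difference was 3.59 over the 9 detected, from -2.77 in Lpl to 7.34 in Cfd. Their summed intensity, before scaling between arrays, was 124032 in SPAD and 52837 in SVCD. Such sums, here and below, weigh bright probes most. Fabp4 alone gave 108495 and 31257, and Lyz2 gave 98429 and 84459 of the macrophage sums. Cidec gave 3.59 ± 0.11 on its brighter probe and 0.00 on another. The endothelial markers Pecam1, Cdh5, Tek, Emcn and Erg were also higher, while Kdr was at -0.49 ± 0.08 on its brighter probe and -1.94 on another (summed intensities 8949 and 4124). Tek was dim, with 38.2 in SPAD and 10.3 in SVCD (2.01 ± 0.53). The macrophage markers Adgre1, Csf1r and Ptprc were lower, Cd14 and Lyz2 lay within 2-fold, and Cd68 was not matched (120371 and 173764). Itgam was at -0.86 ± 0.08 on its brightest probe, within 2-fold, but at -1.65 and -1.79 on its other probes. Lower by far were Acta2, Tagln, Cnn1 and Actg2 of smooth muscle and myofibroblasts (15369 and 213309 with Myh11, which was at 0.55 ± 0.13) and the mesothelial Msln, Krt8 and Krt18 (1257 and 11605 with Krt19 and Wt1, both within 2-fold). Upk3b, a defining mesothelial gene, was above background in SVCD alone, at 13.1 and close to the limit, and its bound was only 1.11-fold. The cell division genes Mki67, Top2a, Ccnb1, Cdk1 and Ccna2 were all lower (554 and 14503). Among adipose progenitor markers Ly6a was higher, Dlk1 lower, Pdgfra and Cd34 within 2-fold and Dpp4 in neither culture (1246 and 1161). The part of these cell types in the differences of the synthesis genes was not tested.

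The 4 regulators of the route did not move together. Srebf1, which encodes SREBP-1, had an intensity of 167 in SPAD and 141 in SVCD, a difference of 0.36 ± 0.13. Mlxipl, which encodes the glucose-responsive factor ChREBP, gave 2703 and 1885 on its brighter probe (0.65 ± 0.08), and its dimmer probe gave 0.66 ± 0.13. Both factors were thus within 2-fold. Thrsp, encoding the lipogenic protein Spot 14, gave 311 in SPAD and was not well above background in SVCD (8.27), which makes it at least 39.5-fold higher in SPAD. Its bound was 5.30 on the log2 scale, or 2.71 with normexp. Mid1ip1, the paralogue of Thrsp whose product promotes the assembly of acetyl-CoA carboxylase into polymers, went the other way, with 1514 in SPAD and 4292 in SVCD (-1.38 ± 0.08, 2.60-fold lower). Among all genes detected on the SPAD array alone, 76% had a bound of at least 2-fold.

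Acetate activation showed the same opposition between related enzymes. Acss2, the cytosolic and nuclear acetyl-CoA synthetase, gave 1071 in SPAD and 90.3 in SVCD (3.69 ± 0.11). Its other probe, with 158 and 28.4, gave 2.60 ± 0.29, and with normexp the brighter probe gave 2.80. Acss1, the mitochondrial acetyl-CoA synthetase, gave 423 in SPAD and 1587 in SVCD (-1.78 ± 0.08, 3.44-fold lower). Acss3, a further mitochondrial member of the family, was detected in neither culture. The promoters of these pairs of paralogues with opposite differences are shown because they let the upstream DNA of the higher and the lower gene be compared. They are the 250 bases before the RefSeq start site in GRCm38.p6, read in the direction of the gene, with motif matches in capitals. Thrsp is at chr7:97417551-97417800, minus strand, Mid1ip1 at chrX:10717115-10717364, plus strand, Acss2 at chr2:155517793-155518042, plus strand, and Acss1 at chr2:150668241-150668490, minus strand.
Thrsp: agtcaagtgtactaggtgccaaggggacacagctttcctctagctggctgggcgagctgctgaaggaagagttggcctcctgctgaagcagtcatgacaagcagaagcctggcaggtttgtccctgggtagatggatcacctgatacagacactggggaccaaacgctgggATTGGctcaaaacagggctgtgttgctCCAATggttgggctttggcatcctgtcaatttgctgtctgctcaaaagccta
Mid1ip1: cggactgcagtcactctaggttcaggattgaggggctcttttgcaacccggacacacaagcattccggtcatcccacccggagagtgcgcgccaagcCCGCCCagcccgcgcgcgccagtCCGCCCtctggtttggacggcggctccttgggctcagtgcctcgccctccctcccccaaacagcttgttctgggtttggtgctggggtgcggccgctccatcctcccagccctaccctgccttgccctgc
Acss2: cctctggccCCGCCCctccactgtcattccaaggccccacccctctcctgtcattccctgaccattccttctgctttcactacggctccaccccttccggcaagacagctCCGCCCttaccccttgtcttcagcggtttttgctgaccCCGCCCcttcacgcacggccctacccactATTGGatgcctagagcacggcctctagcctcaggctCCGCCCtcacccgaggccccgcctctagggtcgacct
Acss1: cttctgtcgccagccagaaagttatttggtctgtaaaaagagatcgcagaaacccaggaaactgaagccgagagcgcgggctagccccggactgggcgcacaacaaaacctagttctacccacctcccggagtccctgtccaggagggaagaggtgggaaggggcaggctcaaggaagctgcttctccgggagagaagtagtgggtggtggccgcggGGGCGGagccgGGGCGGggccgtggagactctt

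Searched for in these windows, and in the 50 bases after the start site, were 5 motifs on both strands. They were the sterol regulatory element TCACNCCAC, the E box CACGTG, the CCAAT box CCAAT, the Sp1 box GGGCGG and the DR1 direct repeat, which is a pair of AGGTCA separated by 1 base, where N is any base. CACGTG reads the same on both strands, and none of the capitals in these sequences belongs to more than 1 motif. The capitals in the Thrsp promoter are 2 CCAAT boxes, with first bases 79 and 52 bases before the start site, the former on the opposite strand. Those of Acss2 are 1 CCAAT box and 4 Sp1 boxes, all on the opposite strand. Mid1ip1 shows 2 Sp1 boxes on the opposite strand and Acss1 shows 2 on its own strand, and neither holds a CCAAT box. Acss2 and Mid1ip1 each hold 1 more Sp1 box just after the start site. Windows of 300 bases were present for 34 of the 44 genes, 45 windows in all. The others were Agpat5, Dgat1, Dgat2, Scd1, Scd2, Acss3, Mogat2, Fads1, Gpat4 and Gpd1. A CCAAT box lay in 22 of the 45 windows (48.9%) and in 37.4% of all 32851 windows, and a Sp1 box in 26 (57.8%) and 35.7%. The sterol regulatory element lay in 2 windows, of Acsl1 and Mlxipl (4.44%, against 1.24%), the E box in 5 (11.1%, against 7.15%), and the direct repeat in 0 (against 0.0396%). The counts by gene cover genes detected in both cultures. A CCAAT box lay in 5 of the 7 genes at least 2-fold higher in SPAD, 1 of the 3 at least 2-fold lower and 11 of the 18 within 2-fold. For the Sp1 box these were 6 of 7, 2 of 3 and 10 of 18. Left out are the genes detected in only 1 culture. Among them Thrsp and Gpam held a CCAAT box, and Pck1, Fads2 and Gpam a Sp1 box. These matches describe letters in a short window and were not tested against binding.

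None of the remaining genes of precursor supply was lower in SPAD. Slc25a1, the mitochondrial citrate exporter, gave 4339 in SPAD and 2581 in SVCD (0.87 ± 0.08). Acly, which splits exported citrate into acetyl-CoA and oxaloacetate, gave 13134 and 9137 (0.65 ± 0.08), and 0.28 ± 0.13 on a much dimmer probe. Both lay within 2-fold. Aacs, which activates acetoacetate for lipid synthesis, gave 1987 and 1896 (0.19 ± 0.08). Me1, the cytosolic malic enzyme that makes NADPH, was higher on all 3 of its probes. Its brightest probe gave 6251 in SPAD and 2186 in SVCD (1.64 ± 0.08, 3.12-fold), and the others gave 1.64 and 2.00.

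Acaca and Fasn, whose products build palmitate itself, were nearly equal on the arrays with percentile scaling. Acaca, the cytosolic acetyl-CoA carboxylase, gave 2171 in SPAD and 2002 in SVCD (0.24 ± 0.08), with 0.22 ± 0.13 on its next probe. A further Acaca probe was well above background in SVCD alone, at 11.0, close to the limit. Fasn, the fatty acid synthase, gave 84.6 and 104 on its only probe (-0.18 ± 0.13), and -1.01 with spike-in scaling. Acacb, the carboxylase at the mitochondrial surface whose malonyl-CoA restrains fatty acid oxidation, was dim on both arrays, with 52.9 and 26.2. Its difference of 1.14 ± 0.39 lay within its spot error of 2-fold, and it was 0.60 with normexp.

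**Figure D2:**
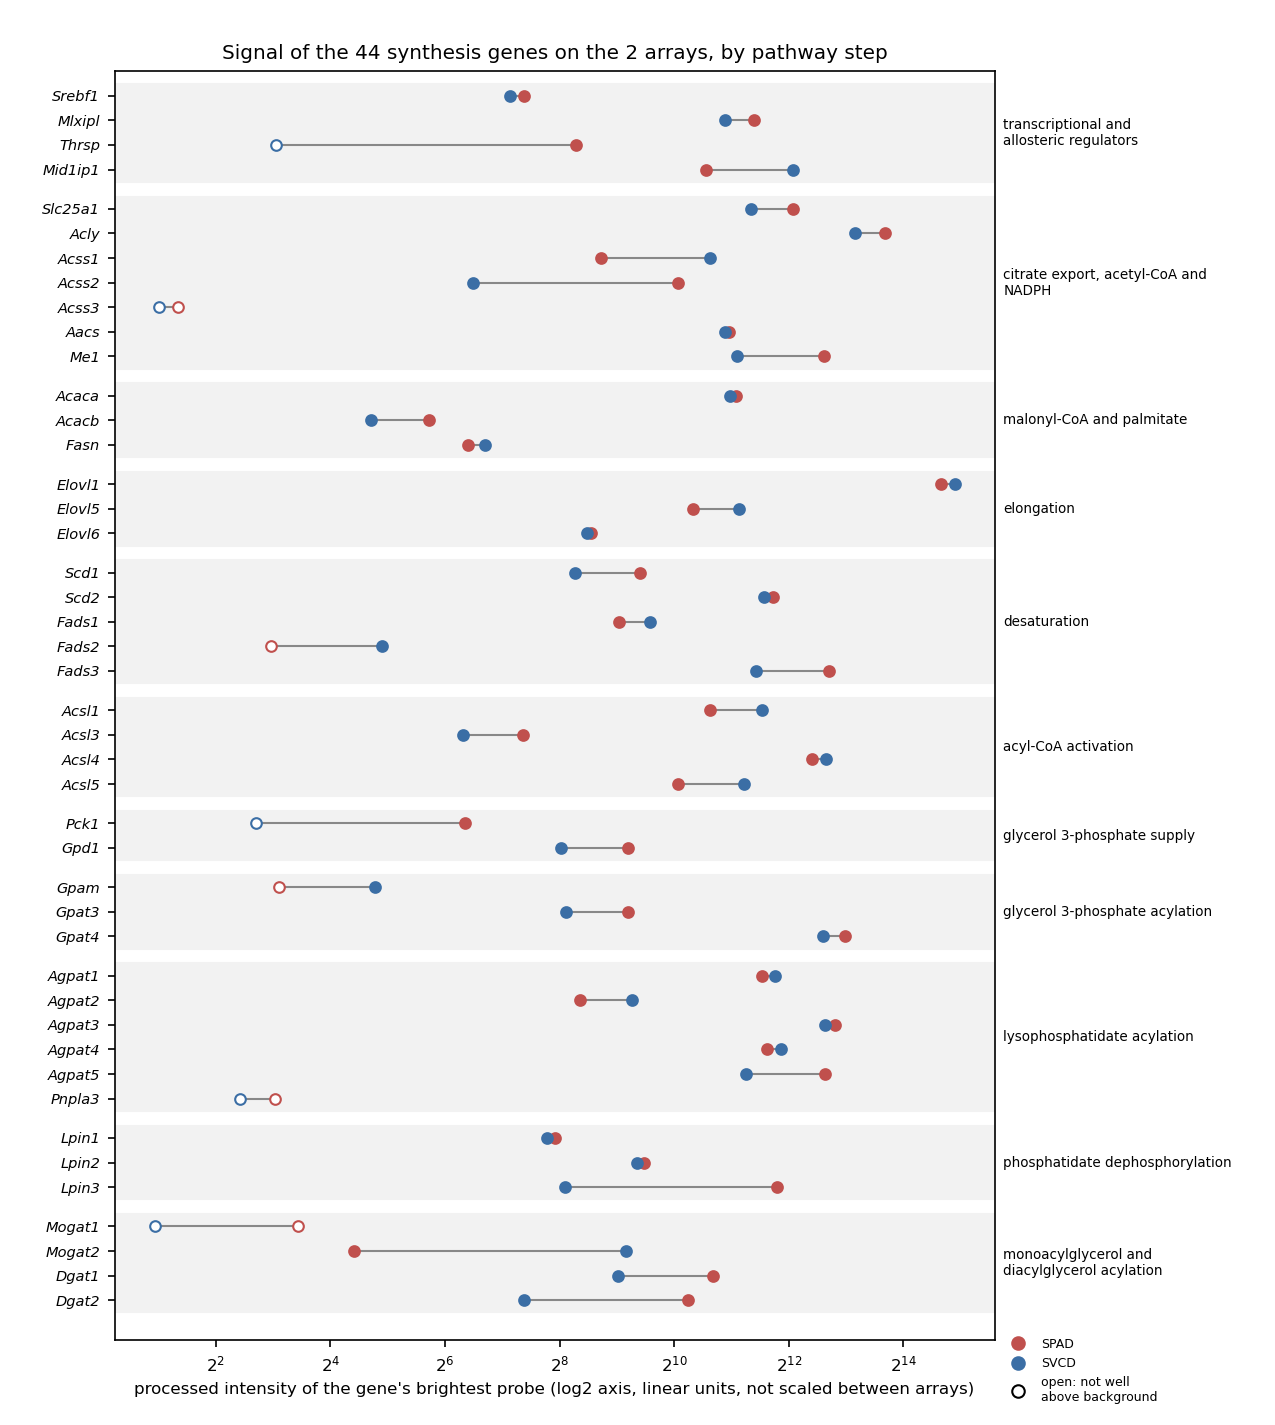
Each line gives a gene's processed intensity on the SPAD array (red) and the SVCD array (blue) on a log2 axis, before scaling between arrays, with genes grouped by pathway step and open circles for signals not well above background. Among genes detected on at least 1 array, the wide gaps are those of Thrsp, Acss2, Pck1, Lpin3, Mogat2 and Dgat2. Levels of different probes are not comparable with each other.

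None of the 3 elongases differed 2-fold with percentile scaling, though Elovl5 was at -1.53 with spike-in scaling. Elovl6, which turns palmitate into stearate, gave 373 in SPAD and 356 in SVCD (0.19 ± 0.09). Elovl1, which makes very long saturated chains, gave 25806 and 30433 (-0.11 ± 0.08), and Elovl5, which elongates polyunsaturated fatty acids, gave 1280 and 2255 (-0.69 ± 0.08). The desaturases were split. Scd1, the main stearoyl-CoA desaturase of adipocytes, gave 682 and 307 (1.27 ± 0.09, 2.42-fold higher). Its neighbour Scd2 gave 3391 and 3033 (0.29 ± 0.08). Fads3, a desaturase best known for acting on sphingolipid bases, gave 6687 and 2763 (1.40 ± 0.08, 2.64-fold higher). The polyunsaturated fatty acid desaturases were on the other side. Fads1 gave 529 and 764 (-0.41 ± 0.09). Fads2 was not well above background in SPAD (7.84) and gave only 30.0 in SVCD, at least 2.54-fold lower in SPAD. Of the genes detected on the SVCD array alone, 38.2% had a bound of at least 2-fold, and with normexp the Fads2 bound was -0.30, under 2-fold.

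Acyl-CoA synthetases leaned towards SVCD except for Acsl3. Acsl1, the synthetase that predominates in adipocytes, gave 1586 in SPAD and 2968 in SVCD (-0.78 ± 0.08), with -0.39 ± 0.11 on a dimmer probe. Acsl5 gave 1070 and 2373, a difference of -1.02 ± 0.08 that lay at the 2-fold line and was -0.93 with normexp. Acsl4, which prefers arachidonate, gave 5410 and 6464 (-0.13 ± 0.08). Acsl3, which is found on nascent lipid droplets, gave 165 and 79.5 (1.18 ± 0.13, 2.27-fold higher), and 0.85 with normexp.

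Both genes that supply glycerol 3-phosphate were higher in SPAD. Pck1, the phosphoenolpyruvate carboxykinase that feeds glyceroneogenesis in fat, gave 81.7 in SPAD and was not well above background in SVCD (6.53). It was at least 10.4-fold higher, or 1.23 on the log2 scale with normexp. Gpd1, the cytosolic glycerol 3-phosphate dehydrogenase, gave 585 and 261 (1.29 ± 0.09, 2.44-fold higher). The first acylation showed no common direction. Gpat3, a microsomal acyltransferase of adipocytes, gave 585 in SPAD and 278 in SVCD (1.20 ± 0.09, 2.30-fold higher). Its relative Gpat4 gave 8109 and 6221 (0.51 ± 0.08). Gpam, the mitochondrial acyltransferase, was dim: it was not well above background in SPAD (8.62) and gave 27.5 in SVCD, at least 2.33-fold lower in SPAD, and its bound was -0.12 with normexp.

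Of the 5 lysophosphatidate acyltransferases, 1 differed 2-fold with percentile scaling. Agpat5, a mitochondrial member of the family, gave 6330 in SPAD and 2455 in SVCD (1.49 ± 0.08, 2.81-fold higher). Agpat2, the member that human fat tissue depends on, gave 329 and 618 (-0.79 ± 0.09). Agpat1 gave 2962 and 3479 (-0.11 ± 0.08), Agpat3 gave 7209 and 6337 (0.31 ± 0.08), and Agpat4 gave 3137 and 3720 (-0.12 ± 0.08). The differences of Agpat1, Agpat3 and Agpat4 were thus small in both directions. Pnpla3, a lipid droplet protein with lipase and acyltransferase activity, was detected in neither culture by either of its probes.

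The lipins, which remove the phosphate from phosphatidate to give diacylglycerol, were led by Lpin3. Lpin3 gave 3552 in SPAD and 273 in SVCD (3.83 ± 0.08), and 3.54 with normexp. Lpin1, the lipin that mouse fat depends on, gave 241 and 221 (0.25 ± 0.13). Lpin2 gave 708 and 654 (0.24 ± 0.09). Lpin3 thus differed 14.2-fold between the cultures, while its relatives were nearly equal.

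The final acylation held the largest deficit of all the synthesis genes in SPAD, next to 2 genes that were higher. Dgat2, the diacylglycerol acyltransferase that favours newly made fatty acids, gave 1212 in SPAD and 167 in SVCD (2.98 ± 0.11). Dgat1, the unrelated diacylglycerol acyltransferase of the endoplasmic reticulum, gave 1644 and 520 (1.79 ± 0.08, 3.45-fold higher). Mogat2, a monoacylglycerol acyltransferase of the Dgat2 family best known from the intestine, gave 21.4 in SPAD and 575 in SVCD (-4.62 ± 0.28). It was well above background on both arrays but dim in SPAD, and its difference was -2.78 with normexp. Mogat1 was detected in neither culture.

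Related enzymes differed from each other, and these gaps do not depend on a constant scaling between the arrays. Each gap sets the member with the highest difference against the one with the lowest. The pairs were thus picked by these values, every gap is positive by construction, and large families tend to wider gaps. The ± does not cover this choice. Over all genes detected in both cultures the quartiles of the difference were -0.48 and 0.60. The difference of Dgat2 exceeded that of Mogat2 by 7.60 ± 0.30 (log2), that of Acss2 exceeded Acss1 by 5.47 ± 0.13, and that of Lpin3 exceeded Lpin2 by 3.59 ± 0.12. Agpat5 exceeded Agpat2 by 2.28 ± 0.12, Acsl3 exceeded Acsl5 by 2.20 ± 0.15, and Fads3 exceeded Fads1 by 1.81 ± 0.12. In the stearoyl-CoA desaturases, elongases and microsomal glycerol phosphate acyltransferases the gap was between 0.69 and 0.99. The gap between the acetyl-CoA carboxylases, 0.90 ± 0.40, was 0.31 with normexp. Normexp gave 5.29 for the Dgat2 family and 4.46 for the acetyl-CoA synthetases, and quantile normalization gave 7.68 and 5.47. Whether probes of related genes also bind each other's transcripts was not tested.

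**Figure D3:**
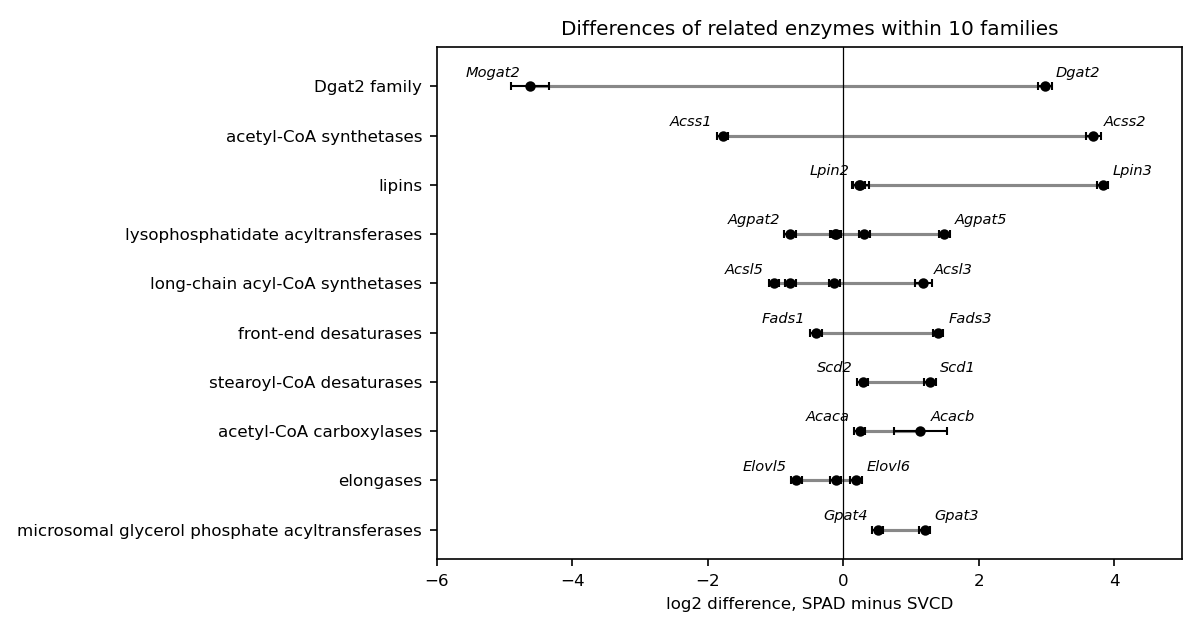
Points give the log2 difference, SPAD minus SVCD, of each member detected on both arrays in 10 families of related enzymes. Bars are the spot error of the difference, and the names mark the lowest and the highest member. The Dgat2 family and the acetyl-CoA synthetases span 0 widely, from -4.62 to 2.98 and from -1.78 to 3.69.

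Different probes of a synthesis gene agreed in sign where they were well above background on both arrays, though not always in size. Of the 44 genes, 10 had several probes, and 7 of these had several that were well above background on both arrays. In each of the 7 these probes agreed in sign. Lpin3, Dgat2, Dgat1, Mogat2, Thrsp and Pck1 each had 1 probe, so this comparison does not cover them. A further Acaca probe, well above background in SVCD alone, was at -0.44 and is not counted here. The spread between probes was largest in Acss2 (1.09) and at most 0.39 in Mlxipl, Acly, Me1, Acaca, Elovl1 and Acsl1.

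By arm of the route, fatty acid synthesis (regulators to desaturases) had 5 of 19 genes past 2-fold on the SPAD side and 2 on the SVCD side, and its median difference was 0.29. Triglyceride assembly (glycerol 3-phosphate supply to diacylglycerol acylation) had 6 of 14 and 1, and its median was 0.41. The 4 acyl-CoA synthetases had 1 in each direction and a median of -0.46. Over all genes 14.4% were higher and 13.3% lower, with a median of 0.07. With spike-in scaling fatty acid synthesis had 1 higher and 5 lower, triglyceride assembly 2 and 2, and the acyl-CoA synthetases 0 and 2. On that scale 5.22% of all genes were higher and 37.9% lower.

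**Figure D4:**
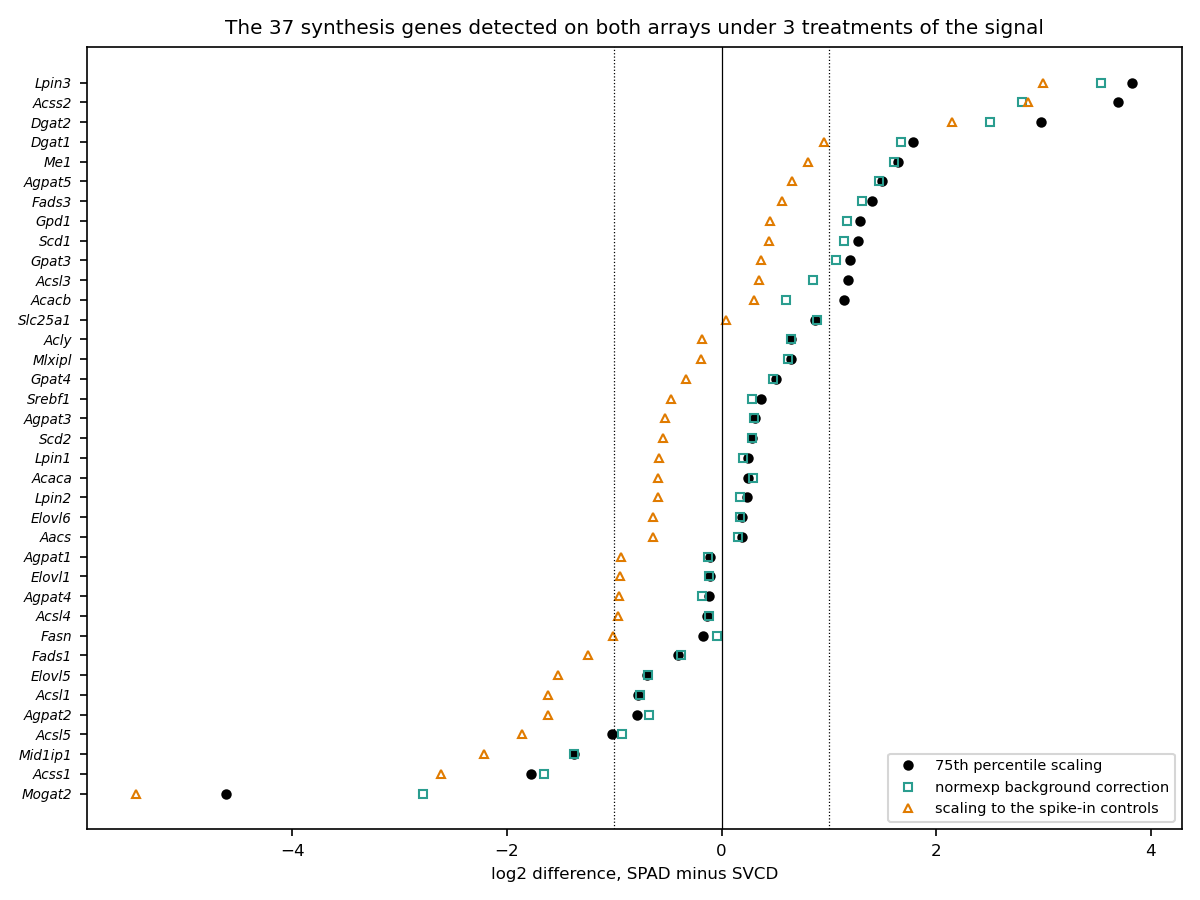
Each row is 1 of the 37 synthesis genes detected on both arrays, with its log2 difference, SPAD minus SVCD, after percentile scaling (black), normexp background correction (green squares) and scaling to the spike-in controls (orange triangles); dotted lines mark 2-fold. Spike-in scaling moves all genes to the left by 1 constant, and normexp draws the genes that are dim on 1 array, such as Mogat2 and Acss2, towards 0.

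Other genes of the route, 77 in 5 lists, differed about as often as all genes did. Of the 71 detected in both cultures, 13 (18.3%) passed 2-fold on the SPAD side, against 14.4% of all genes, and 8 (11.3%) on the SVCD side, against 13.3%. Their median difference was 0.04. Pparg and Slc2a4, both higher, are also among the white adipocyte markers above. With spike-in scaling 5 were higher (7.04%, against 5.22% of all genes) and 25 lower (35.2%, against 37.9%). Among 14 lipogenic regulators 3 were higher and 2 lower. They included Pparg, the adipogenic nuclear receptor (1.98 ± 0.03), Insig1, which retains SREBP in the endoplasmic reticulum (1.67 ± 0.11), and Rxra, the nuclear receptor that pairs with PPAR gamma, at 1.27 ± 0.13 on the brightest probe but -0.16 on another. In substrate and NADPH supply 6 of 16 were higher and 2 lower. Pcx, the pyruvate carboxylase that replenishes oxaloacetate for citrate export, gave 5117 in SPAD and 420 in SVCD (3.73 ± 0.08). The insulin-responsive glucose transporter Slc2a4 gave 2.97 ± 0.09, and the mitochondrial dicarboxylate carrier Slc25a10 gave -1.49 ± 0.29.

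In the remaining 3 lists most genes lay within 2-fold, as did 72.3% of all genes. Among 10 genes that activate fatty acid synthase and acetyl-CoA carboxylase, restrain them or serve mitochondrial fatty acid synthesis, 1 was higher. This was Prkaa2, a catalytic subunit of AMP-activated kinase (2.31 ± 0.11), whereas its sister Prkaa1 was at -0.40 ± 0.08. Aasdhppt, which attaches the prosthetic group of fatty acid synthase, was at 0.77 ± 0.08, but at -0.40 on another probe. Olah, of the same list, was dim, with 20.0 in SPAD and 15.2 in SVCD (0.52 ± 0.53). Of 12 elongation and desaturation partners, the electron donor Cyb5a was higher (2.51 ± 0.08) and the dehydratase gene Hacd4 lower (-1.56 ± 0.08, and -2.46 on another probe), with Hsd17b12 at 0.81 ± 0.08. Of 19 glycerolipid partners 2 were higher and 3 lower. Mboat1, a lysophospholipid acyltransferase, gave 20.1 in SPAD and 387 in SVCD (-4.14 ± 0.28). Plpp3, a lipid phosphate phosphatase, was at 1.65 ± 0.08 and Cds2, which turns phosphatidate into CDP-diacylglycerol, at 1.62 ± 0.08.

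**Figure D5:**
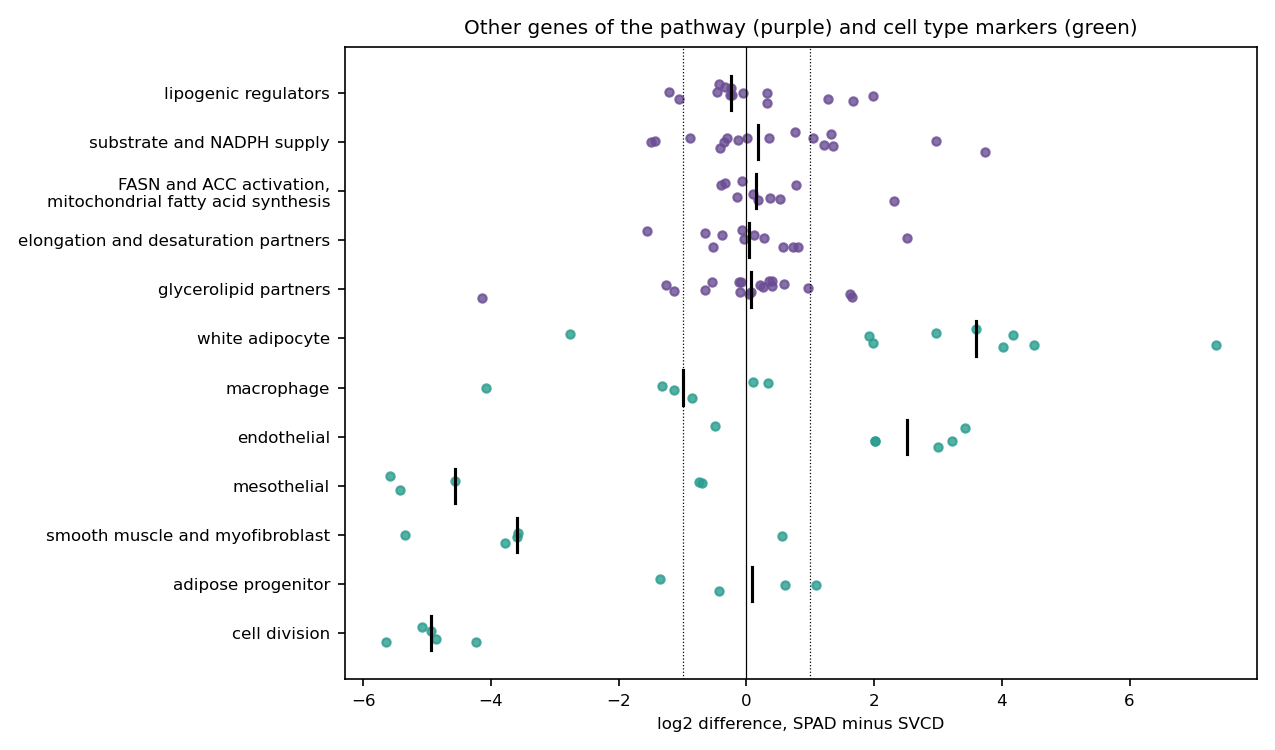
Points give the log2 difference, SPAD minus SVCD, of genes detected on both arrays in 5 lists of other pathway genes (purple) and 7 lists of cell type or cell state markers (green); black bars are list medians and dotted lines mark 2-fold. The pathway lists have medians between -0.23 and 0.18, while the white adipocyte median is 3.59 and the cell division median -4.94.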

How the data were processed

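Per the submitters' processing notes, the authors quantified spots in Feature Extraction (Agilent, version 10.7.3.1). The deposited scanner files give background-subtracted intensity on a linear scale, per the file headers. Both arrays lay on 1 slide and share a scan time. No spot of a probe was saturated, and 64.5% and 65.6% of 39425 probes were well above background in SPAD and SVCD. Control spots and 73 and 85 outlier spots were left out, repeat spots averaged, and values taken as log2 intensity minus the array's 75th percentile. The authors also deposited a table on a log2 scale, centred per probe (column medians 0.16 and -0.16). Its column difference equalled the log2 intensity difference plus 0.12 for every probe kept (to within 0.0001), so it is not separate evidence. The sources used here do not give how that constant was set.

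Probes were named by RefSeq transcript (GRCm38.p6 table, matched without versions); 27506 were named. The array design names mm9, so no gene coordinates are given; promoters are RefSeq's, GRCm38.p6. A gene was read from its probe with the highest mean signal. A gene well above background on 1 array was set against the higher of its own dim signal and the lowest signal well above background on the dim array (10.8 in SPAD, 8.60 in SVCD), giving "at least N-fold". Spot error came from 398 repeatedly printed probes per array, by the array's own signal, and ran from 0.45 per spot under an intensity of 16 to 0.06 in the brightest signals.

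A single array per group allows no test, and the number of arrays limits precision. A difference of at least 2-fold was counted. The gene summary was tested on simulated data with spot error only. These took the detection calls of the SVCD array for both arrays, so the bounds and the differences between cultures were not covered. The members and lists were chosen with earlier results of these data known. All 44 members and all marker genes are named, with up to 3 genes per other pathway list by largest difference. Prkaa1 was named outside this rule, beside its sister Prkaa2. Alternatives were normexp with offset 50 (limma 3.58.1, on the median spot and background signals, since no mean spot signal was used here), quantile normalization, no scaling, spike-in scaling, the deposited table, the mean over probes, no filter on dim probes, and 1.5-fold and 3-fold sizes.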

Additional observations from a re-analysis of the deposited data

How the results depend on the processing

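The counts of 12 higher and 4 lower genes and the median of 0.29 stayed within 1.5 times and within the median spot error of the members (0.08) under normexp (10, 3 and 0.28), quantile normalization, the deposited table, the mean over probes and no filter on dim probes. Spike-in scaling gave 3 higher (5.22% of all genes), 9 lower (37.9%) and a median of -0.55 (-0.76 over all genes), by construction of a constant shift. Leaving the arrays unscaled gave a median of 0.16. Counting from 1.5-fold gave 15 higher (25.7% of all genes) and 7 lower (21.7%); counting from 3-fold gave 5 higher (6.91%) and 2 lower (7.03%). Of the 12 higher genes, 3 were at least 2-fold higher under all 7 alternatives run per gene, and of the 4 lower genes 3 were. Of 37 genes, 26 kept their sign under all 7, and no gene past 2-fold changed sign. For such genes a sign change was impossible under the constant shifts, of which spike-in scaling is the largest at -0.83. Dropping the filter leaves genes detected on both arrays unchanged. Only normexp, quantile normalization and the mean over probes could have turned a sign past 2-fold. No paired analysis was possible because each group has 1 array. Signals near background limit Acacb, Fads2, Gpam, the SVCD side of Thrsp and Pck1 and the SPAD side of Mogat2.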

Other observations

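Some genes of the other pathway lists fell outside the rule for naming and are given here, chosen after their values were seen. G6pdx and Pgd, the NADPH-producing dehydrogenases of the pentose phosphate pathway, were 2.55-fold and 2.49-fold higher in SPAD (1.35 ± 0.08 and 1.32 ± 0.08), while Idh1, a further cytosolic source of NADPH, was at -0.41 ± 0.09 and Mdh1, which makes malate from oxaloacetate in the cytosol, at -1.42 ± 0.08. With spike-in scaling, which shifts each value by -0.83, neither G6pdx nor Pgd reached 2-fold. Nr1h3, which encodes the oxysterol receptor LXR alpha, an activator of Srebf1, was 2.32-fold lower in SPAD on its brighter probe (-1.21 ± 0.08) and at -1.25 on another. Srebf2, the SREBP gene of cholesterol synthesis, was at -1.05 ± 0.08 on its brighter probe but at -0.10 on another. Mpc2, a subunit of the mitochondrial pyruvate carrier, was 2.33-fold higher (1.22 ± 0.03), with its partner Mpc1 at 0.35 ± 0.08.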
